A study of Mus musculus with 6 samples.

Results

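The Nedd4l locus comprised the accessible chromatin peaks whose nearest transcription start site (TSS) belonged to Nedd4l and lay at most 200000 bp away. By this rule 28 of 175929 peaks were members. All 28 lay within 99193 bp of a Nedd4l TSS and 0 Nedd4l peaks lay beyond the limit, so the distance limit removed none. The locus was chosen because its peaks were more accessible after tamoxifen in these libraries. Its tamoxifen and oil values are therefore given as a description, without a test, and only peaks of other genes were tested.

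ATAC-seq, in which a transposase cuts and tags open DNA, was performed on 3 oil libraries (replicates 1, 2 and 4) and 3 tamoxifen libraries (replicates 1, 3 and 4). Both groups were leukemia cells with 1 floxed Usp18 allele (Usp18+/f), a ubiquitin C promoter-driven Cre recombinase that tamoxifen switches on (UBCER-Cre), and the AML1-ETO9a (AE9a) oncogene, delivered with GFP. The cells were grown in recipient mice, and GFP+ Lin- c-Kit+ splenocytes were sorted 3 days after the first injection of oil or tamoxifen. Recipients received the agent once they were sick, their age was not given in the labels, and cells without Cre were not compared, so the drug and the loss of 1 Usp18 allele cannot be told apart. The labels do not say that each library came from its own mouse. The study's methods name 3 mice per group in the sorted set used for ATAC-seq, whereas its reporting summary gives 2 ATAC-seq replicates. Therefore n counts libraries, and their spread may be partly technical. In sorted bulk cells, a site open in more cells and a site more open in each cell cannot be told apart.

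NEDD4L (NEDD4-2) is a HECT-type E3 ubiquitin ligase of the NEDD4 family. Its WW domains bind PY motifs in target proteins, which are then ubiquitylated and removed. It is best known for withdrawing the epithelial sodium channel and other ion channels from the cell surface, and it also limits TGF-beta signaling through phosphorylated SMAD2 and SMAD3. The kinase SGK1 phosphorylates NEDD4L, and the 14-3-3 proteins that then bind hold it away from its targets. The gene is transcribed from several alternative start sites, and its transcripts differ at their 5' ends.

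Libraries held 57.4 to 74.7 M tags (1 M is 1000000), of which 28.2 to 30.5% lay in peaks, and the median peak held 45.0 to 57.0 tags. Tamoxifen replicate 4 stood apart from the other tamoxifen libraries, as its chi-square over all peaks, divided by the degrees of freedom, was 2.66 and 2.68 against them, compared with 1.48 between replicates 1 and 3 and 1.03 to 1.22 among the oil libraries. The peak at the Usp18 TSS had a log2 change of 0.03 (SE 0.10, adjusted p = 0.988, DESeq2), and as the deleted part of Usp18 was not mapped here, this neither checks nor contradicts the labels. Of the c-Kit-positive progenitor markers, 4 of 4 had a peak within 3000 bp of the TSS, and Cd34, a stem and progenitor cell antigen, was higher after tamoxifen (log2 change 1.50, adjusted p = 8.32e-12, DESeq2). The other 3, Kit, Myb and Gata2, had log2 changes of 0.05, -0.07 and 0.09, with adjusted p of 0.962, 0.946 and 0.948. The 4 progenitor peaks summed to 1754 to 1790 normalized tags after oil and 1827 to 2110 after tamoxifen, and without Cd34 to 1636 to 1698 and 1616 to 1777. T cell markers summed to 39.7 to 68.3 tags after oil and 59.1 to 75.9 after tamoxifen, with 2 of 5 having a peak and none at Cd3d, Cd4 or Cd8a. The sums for B cells (2 of 4 with a peak, none at Cd79b or Ms4a1) were 122 to 145 and 131 to 169. Of the mature myeloid markers, Itgam alone of 5 had a peak, at 29.8 to 30.7 tags after oil and 27.5 to 59.6 after tamoxifen, and Ly6g, Csf1r, Ltf and Camp had none. The erythroid markers Klf1, Epor, Ermap and Slc4a1 each had a peak, with log2 changes of -0.21 to 0.04 (3 of 4 below 0), and summed to 584 to 588 tags after oil and 458 to 601 after tamoxifen. In these 4 other lists 0 peaks passed an adjusted p under 0.05 in DESeq2 or edgeR and 1 had an unadjusted p under 0.05, and their part in the values of the locus was not tested.

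In mm10 coordinates Nedd4l spans chr18:64887705-65217828 on the plus strand in the GENCODE annotation, a length of 330124 bp with 34 annotated transcripts. The deposited table used 2 RefSeq start sites, an upstream one at 64887756 and a downstream one at 65023527. Peaks are named here by the distance of their center from the upstream site, in kb. Members ran from -47.7 kb, upstream of the gene, to +235 kb in intron 5. Intron 1 of the long transcript held 11 of the 28 members and intron 2 held 10. Most members, 18 of 28, came from the peak lists of both groups, 7 came from the tamoxifen list alone and 3 from the oil list alone. Of all peaks, 71.4% came from both lists, 11.2% from the tamoxifen list alone and 17.4% from the oil list alone.

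The locus was wide but shallow in oil-treated cells. Its 28 peaks exceeded the number at 95.3% of the 19972 genes with a peak within the same distance, where the median gene had 6. Summed over those peaks, the locus held 16.3 ± 0.931 tags per M mapped tags (SD, n = 3) after oil, more than 67.6% of genes. Divided by the number of peaks, its level exceeded that of 14.4% of genes. Per M mapped tags and kb of peak, the 25 distal members (more than 3000 bp from a TSS) had a median of 1.48 in oil, with a range of 0.574 to 7.73, whereas the median over all distal peaks was 2.27. Of these 25, 7 lay above that median. Raw counts at the members ran from 6 to 185.5 tags per library with a median of 38, so that counting error was a large part of the spread at the weaker peaks.

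The peak across the upstream start site of Nedd4l was among the weakest start-site peaks. At +0.03 kb (chr18:64887625-64887947, across the TSS) it held 1.33 ± 0.138 tags per M mapped tags and kb after oil (SD, n = 3), above 3.32% of all peaks within 500 bp of a TSS. Most other NEDD4 family ligases had more on this scale. Nedd4, the closest relative, had 31.2 ± 4.37 (SD, n = 3), Smurf2 34.0 ± 4.07 (SD, n = 3) and Itch 28.7 ± 2.37 (SD, n = 3). Wwp2 followed with 23.1 ± 1.53 (SD, n = 3), then Wwp1 with 18.8 ± 0.674 (SD, n = 3) and Smurf1 with 16.0 ± 0.124 (SD, n = 3). Hecw1 had 3.18 ± 0.680 (SD, n = 3), and Hecw2 had no peak within 500 bp. The ranges of Smurf2, Nedd4 and Itch overlapped one another over the 3 oil libraries. The 3 values of the Nedd4l peak at +0.03 kb lay below those of every other ligase with such a peak. This rank depended on the 500 bp limit, which left out the second peak at the upstream start site, at -0.55 kb. That peak had a mean of 3.67 on the same scale after oil, above the Hecw1 mean of 3.18. It exceeded 45.3% of all peaks within 3000 bp of a TSS.

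**Figure D1:**
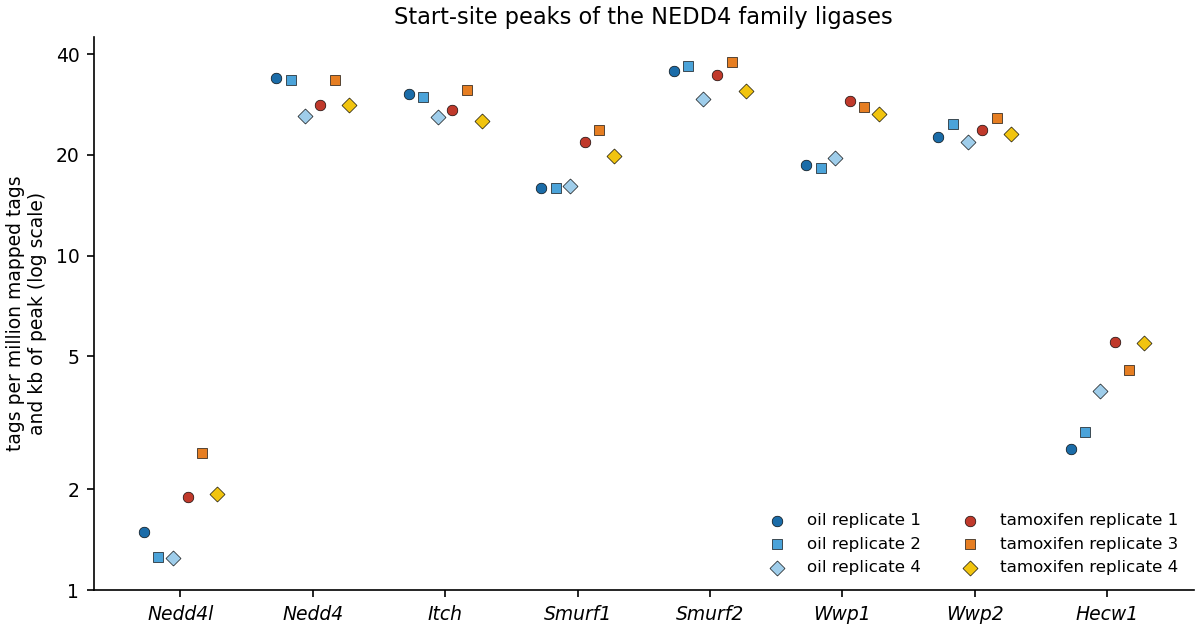
Accessibility of the start-site peak of each NEDD4 family ligase in each library, in tags per M mapped tags and kb of peak (log axis). Circles, squares and diamonds are single libraries, blue for oil and red to yellow for tamoxifen. Nedd4l (peak at +0.03 kb, 1.24 to 2.56) and Hecw1 (2.64 to 5.52) lie below the other 6 ligases in every library.

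To describe the locus after tamoxifen, tags were divided by DESeq2 size factors, and a peak was termed called when the fold change exceeded 2 and the adjusted p was under 0.05 in a fit of all peaks. By these limits 9 of 28 members were called, all of them higher after tamoxifen, beside 0.588% of all peaks called higher and 0.0659% called lower. As the locus was chosen on this contrast, the count is no finding. The count depended on which libraries were kept. Leaving out oil replicate 1 gave 5 called members (0.346% of all peaks called), oil replicate 2 gave 6 (0.311%) and oil replicate 4 gave 5 (0.376%). Leaving out tamoxifen replicate 1 gave 4 (0.362%), tamoxifen replicate 3 gave 5 (0.21%) and tamoxifen replicate 4 gave 13 (1.54%). In all but the last of these fits, 5 to 9 members had no adjusted p and so could not be called. The members at +69.8, +74.9, +102 and +118.5 kb were called in all 6 fits. With edgeR 12 members were called (1.03% of all peaks), and in a fit that paired the libraries numbered 1 and 4 none (0) was (0.0296%). In 20 of 28 members all 3 tamoxifen values lay above all 3 oil values, as in 11.9% of all peaks, and in 8 the groups overlapped. The log2 change was above 0 in 27 members, beside 49.7% of all peaks. Its median was 0.90 over the members and -0.0013 over all peaks.

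Summed over the 28 members, normalized tags were 1090, 987 and 1115 in oil replicates 1, 2 and 4 and 2056, 2060 and 1615 in tamoxifen replicates 1, 3 and 4. The groups did not overlap, and tamoxifen replicate 4 lay between the oil libraries and the other tamoxifen libraries. The ratio of the group means was 1.79, or 0.84 on the log2 scale. Without the 9 called members the sum was higher after tamoxifen by 0.54 on the log2 scale, with 658 to 774 tags after oil and 875 to 1141 after tamoxifen. The 19 members left belong to the locus chosen on this contrast, so this is a description and no check. Replicate 4 was the lowest tamoxifen library at 21 of the 28 members and at 7 of the 9 called ones. It lay above all oil values at 20 members (and at 29.2% of all peaks), compared with 26 for replicate 1 (33.0%) and 25 for replicate 3 (34.7%).

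**Figure D2:**
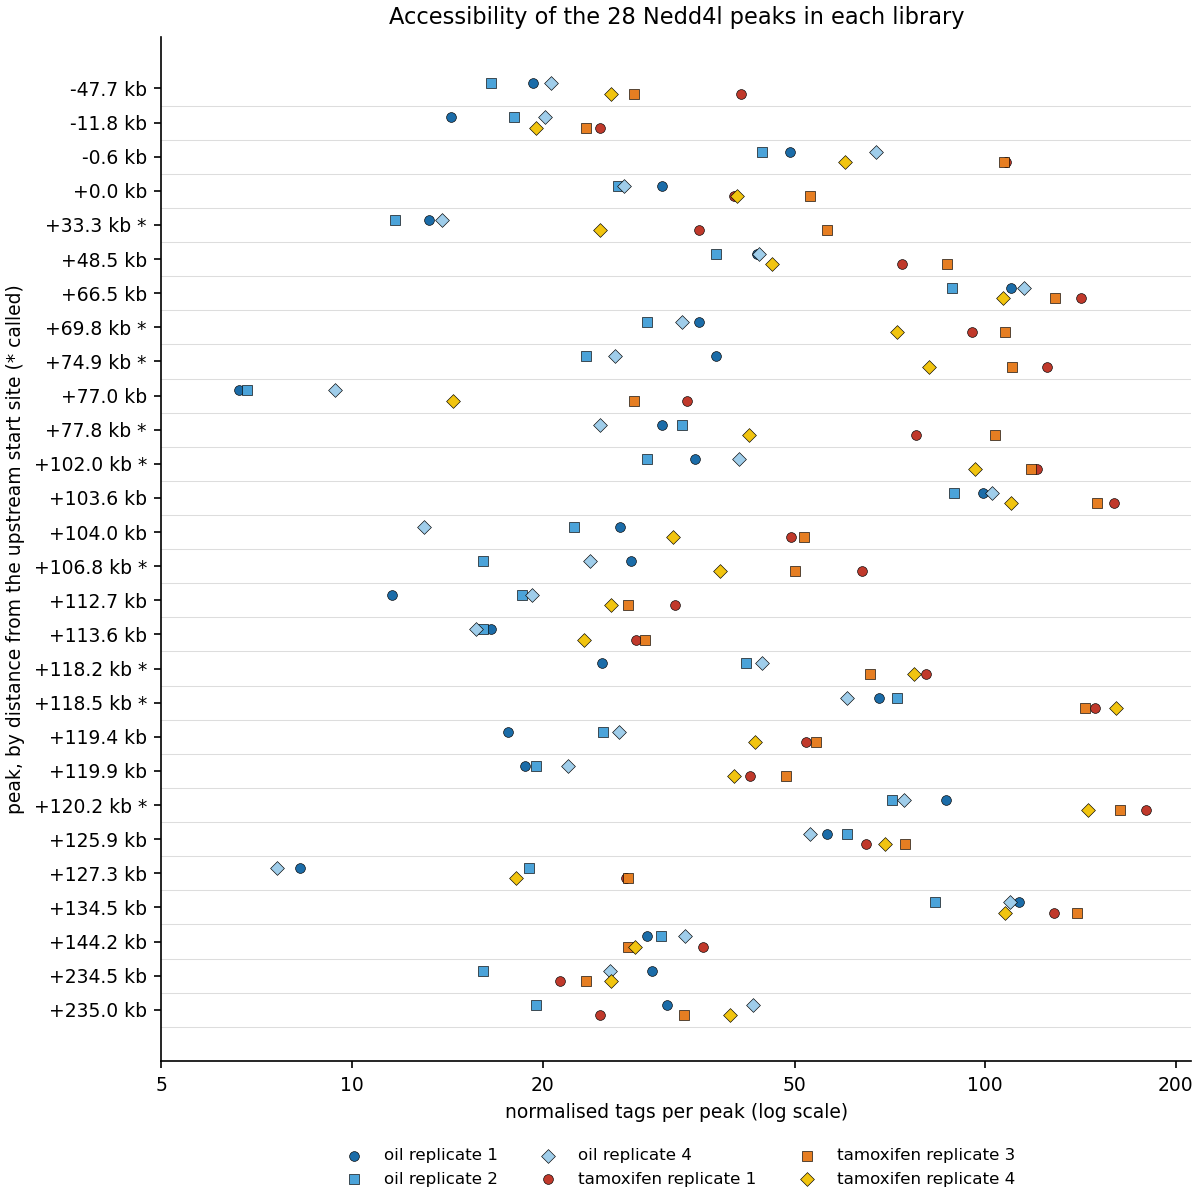
Normalized tags (log axis) of each of the 28 Nedd4l peaks in each of the 6 libraries, ordered by distance from the upstream start site in kb, with called peaks starred. Oil libraries are blue and tamoxifen libraries red, orange and yellow. Between +69.8 and +120 kb the blue and red points separate, whereas from +134 kb onward they mix.

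At the upstream start site the peak across the TSS (+0.03 kb) had 30.9, 26.3 and 26.9 normalized tags after oil and 40.1, 52.9 and 40.5 after tamoxifen. The 3 tamoxifen values were above the oil values, and the log2 change was 0.68 (SE 0.32). The neighboring peak at -0.55 kb (chr18:64887095-64887317) had 49.1, 44.4 and 67.2 after oil and 108, 107 and 60.1 after tamoxifen. Here tamoxifen replicates 1 and 3 were high and replicate 4 lay within the oil range. Both peaks also overlap A330084C13Rik, an antisense gene on the minus strand, and ATAC-seq carries no strand. The downstream start site had no peak across it. Its nearest peak, -1306 bp from it at +134 kb (chr18:65022118-65022324), was 1 of the 2 most open members, with 113, 83.4 and 109 tags after oil and 129, 140 and 108 after tamoxifen. The groups overlapped, and the log2 change was 0.30 (SE 0.19).

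The called peak nearest to the upstream start site lay at +33.3 kb in intron 1 (chr18:64920892-64921148), where GENCODE places the start of 3 further Nedd4l transcripts, the first at 64921117. It was weak after oil, with 13.2, 11.7 and 13.9 tags, and had 35.3, 56.3 and 24.7 after tamoxifen. The groups did not overlap, and the tamoxifen libraries differed among themselves by more than the oil libraries did. The log2 change was 1.54 (SE 0.42). The peak came from the tamoxifen list alone.

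The other 8 called members lay in a window of 50589 bp, from 69718 to 120306 bp downstream of the upstream start site, across introns 1 and 2. The window held 15 members. All 15 had tamoxifen values above the oil values, beside 11.9% of all peaks, and the window, drawn around called peaks, was set by the same contrast. Their summed tags were 542, 514 and 536 after oil and 1290, 1251 and 1003 after tamoxifen. Outside the window the 13 remaining members included the start-site peaks and the 3' part of the locus. Within it, peaks fell into 3 stretches separated by gaps of over 5000 bp, a spacing chosen after the values were seen.

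The first stretch, from +66.5 to +77.8 kb in intron 1, held 5 peaks of which the first lies just outside that window. Its largest difference was at +74.9 kb (chr18:64962490-64962801), with 37.5, 23.4 and 26 tags after oil and 125, 110 and 81.5 after tamoxifen. All tamoxifen libraries were more than 2 times the highest oil library, and the log2 change was 1.88 (SE 0.27). At +69.8 kb (chr18:64957474-64957698) oil libraries had 35.3, 29.3 and 33.2 tags and tamoxifen libraries 95.2, 108 and 72.6. The difference was 1.49 (SE 0.26) on the log2 scale, and the groups again stood apart.

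The peak at +77.8 kb (chr18:64965486-64965712) had 30.9, 33.2 and 24.6 tags after oil and 77.8, 104 and 42.4 after tamoxifen. Tamoxifen replicate 4 was here much closer to the oil libraries than replicates 1 and 3, and the log2 change was 1.32 (SE 0.32). Between these peaks, at +77.0 kb (chr18:64964695-64964897), a peak annotated to a SINE repeat was almost closed after oil, with 6.62, 6.83 and 9.41 tags, and had 33.8, 27.9 and 14.4 after tamoxifen. Its log2 change of 1.76 (SE 0.52) was among the largest, but it stayed just outside the limits at these low counts. The stretch began with the most open member in oil, at +66.5 kb (chr18:64954163-64954369), with 110, 88.7 and 115 tags after oil and 142, 129 and 107 after tamoxifen. Tamoxifen replicate 4 was inside the oil range at this peak, and the log2 change was 0.26 (SE 0.19).

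The second stretch, from +102 to +107 kb in intron 1, held 4 peaks and also overlaps an antisense gene on the minus strand (chr18:64978546-65001175). At +102 kb (chr18:64989527-64989886) oil libraries had 34.7, 29.3 and 40.8 tags and tamoxifen libraries 121, 118 and 96.4. The 3 tamoxifen values were close together and far above the oil values, with a log2 change of 1.66 (SE 0.24). Close by, at +103.6 kb (chr18:64991268-64991475), the most open peak of the stretch had 99.3, 89.2 and 103 tags after oil and 160, 150 and 110 after tamoxifen. Tamoxifen replicate 4 was here only just above the oil libraries, and the log2 change was 0.52 (SE 0.19). The peak at +107 kb (chr18:64994458-64994720) had 27.6, 16.1 and 23.7 tags after oil and 63.8, 50.1 and 38.2 after tamoxifen, a log2 change of 1.20 (SE 0.34) with groups that did not overlap.

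The third stretch, from +113 to +120 kb in intron 2, held 7 peaks, and at all 7 the tamoxifen values exceeded the oil values. Its largest values were at +120 kb (chr18:65007834-65008062), with 86.6, 71.2 and 74.4 tags after oil and 179, 163 and 145 after tamoxifen. The groups were well apart, and the log2 change was 1.08 (SE 0.19). At +118.5 kb (chr18:65006105-65006410) the oil values were 67.8, 72.6 and 60.5 and the tamoxifen values 149, 144 and 161. Tamoxifen replicate 4 was the highest library at this peak, unlike at most members, and the log2 change was 1.17 (SE 0.19).

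The peak beside it at +118.2 kb (chr18:65005842-65006058) had 24.8, 41.9 and 44.3 tags after oil and 80.7, 65.7 and 77.3 after tamoxifen. It came from the oil list alone although every tamoxifen library held more tags, and its log2 change of 1.00 (SE 0.27) was just past the fold limit. The 4 other peaks of the stretch were weaker, with 11.6 to 26.4 tags after oil and 23.3 to 54.0 after tamoxifen, and log2 changes of 0.73 to 1.13. Of the 9 called members 3 were annotated to repeats, as were 9 of the 28 members (32.1%), 22.5% of all peaks and 27.8% of all distal peaks.

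Tamoxifen replicate 4 differed from the other tamoxifen libraries by stretch. Summed over the third stretch, tags were 244, 265 and 263 after oil and 564, 531 and 516 after tamoxifen. Replicate 4 thus reached 89.0% of the difference that replicates 1 and 3 had from the oil mean. In the first stretch the sums were 220, 181 and 208 after oil and 474, 478 and 318 after tamoxifen, and replicate 4 reached 41.9%. The second stretch had 188, 157 and 180 after oil and 394, 370 and 277 after tamoxifen, with replicate 4 at 49.1%. At the 2 peaks of the upstream start site, replicate 4 reached 26.3%. This difference between stretches was noticed in the data, was not tested, and rests on 1 library.

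**Figure D3:**
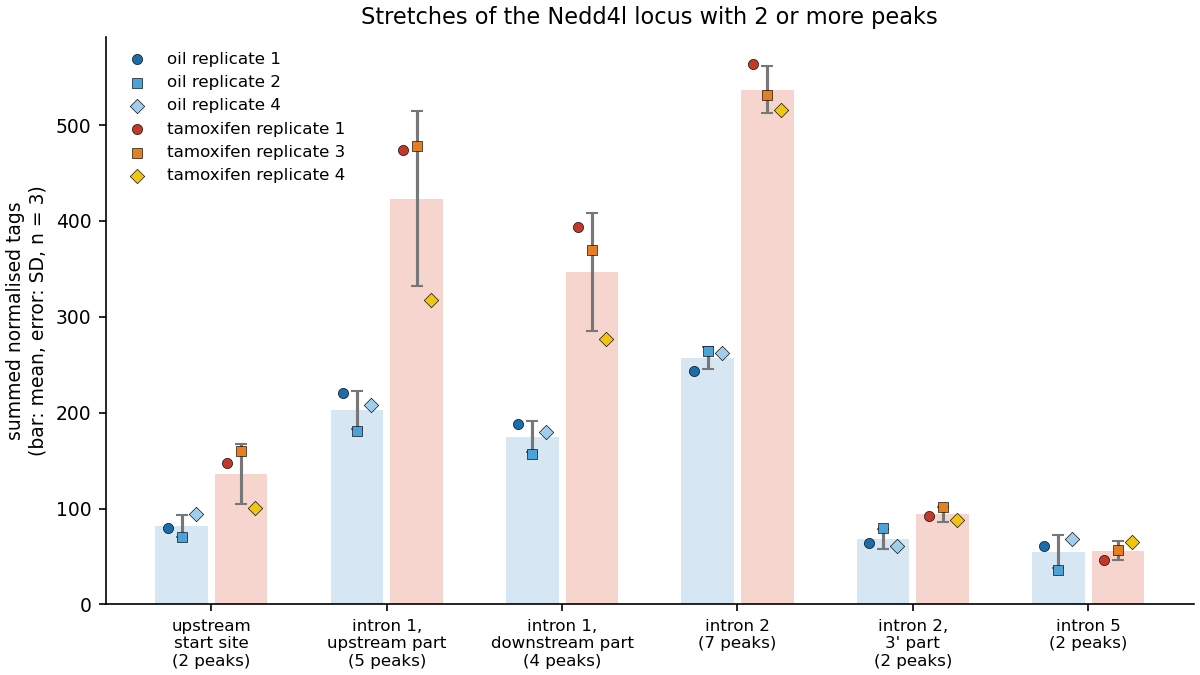
Normalized tags summed over each stretch of the Nedd4l locus with 2 or more peaks. Bars are group means, error bars SDs (n = 3 libraries), and points single libraries, blue for oil and red to yellow for tamoxifen. Tamoxifen replicate 4 (yellow) lies with the other tamoxifen libraries in intron 2 (516 beside 531 and 564) and below them in both parts of intron 1.

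Upstream of the gene, 2 weak members from the tamoxifen list alone lay at -47.7 and -11.8 kb. The first had 19.3, 16.6 and 20.6 tags after oil and 41.1, 27.9 and 25.6 after tamoxifen, whereas the values of the second overlapped between groups, at 14.3 to 20.2 and 19.6 to 24.6. In intron 1 a member at +48.5 kb had 43.6, 37.5 and 43.9 tags after oil and 73.9, 86.9 and 46.1 after tamoxifen, with replicate 4 near the oil libraries. Downstream of the third stretch, at +125.9 kb, values were 52.9 to 60.5 after oil and 64.8 to 74.7 after tamoxifen, and the groups did not overlap. At +127.3 kb they were 7.62 to 19.0 and 18.2 to 27.3 and did overlap.

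The 3' part of the locus showed no separation. The member at +144 kb (chr18:65031844-65032134), past the downstream start site, was the only 1 of 28 with a log2 change below 0. It had 29.2, 30.7 and 33.6 tags after oil and 35.8, 27.3 and 27.9 after tamoxifen, a log2 change of -0.06 (SE 0.34), and the groups overlapped. The 2 members in intron 5 were the farthest from a TSS and came from the oil list alone. At +235 kb (chr18:65122611-65122829, 99193 bp from the downstream TSS) tags were 31.4, 19.5 and 43.0 after oil and 24.6, 33.4 and 39.6 after tamoxifen, with a log2 change of 0.06 (SE 0.36).

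**Figure D4:**
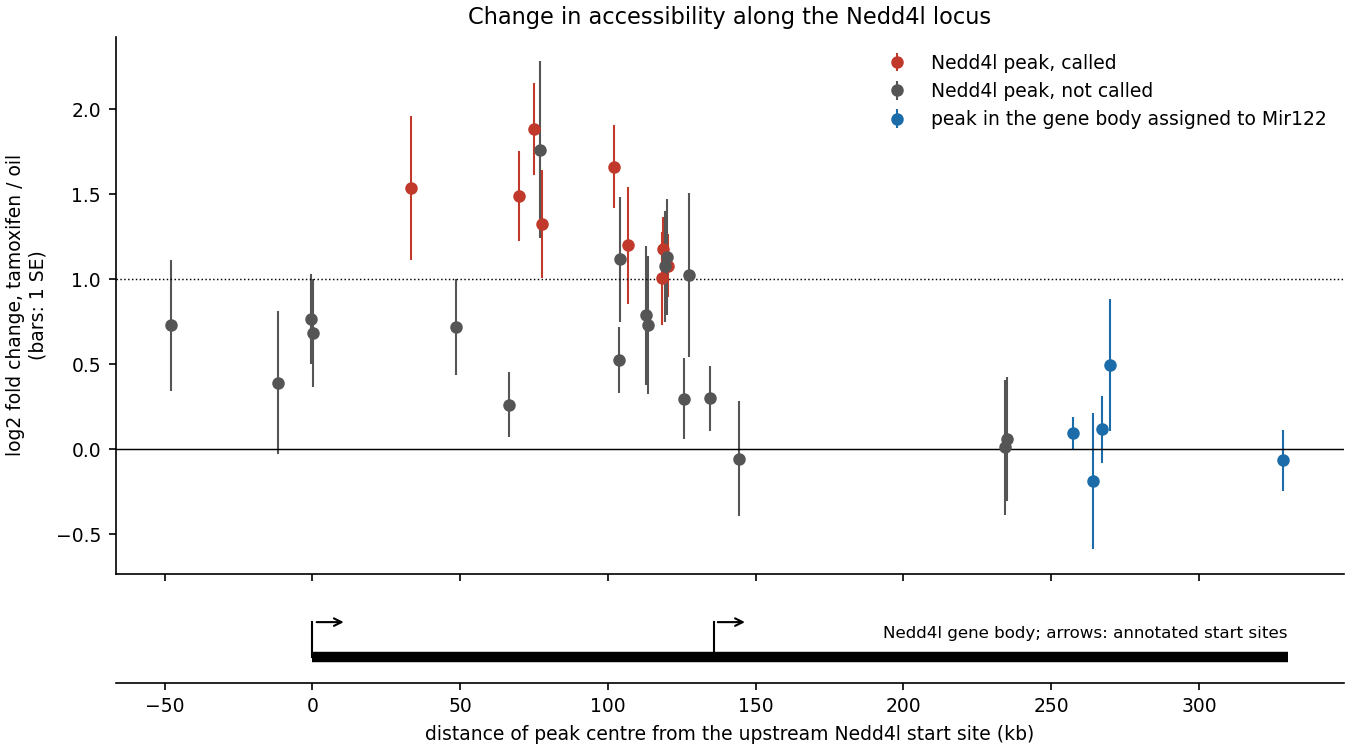
Log2 fold change of tamoxifen over oil (points, with bars of 1 SE) against the distance of the peak center from the upstream start site in kb, for the 28 Nedd4l peaks and the 5 gene-body peaks assigned to Mir122. The lower panel shows the gene body and the 2 start sites, the solid line no change and the dotted line a fold of 2. Called peaks (red) lie at +33.3 kb and between +69.8 and +120 kb, and the 5 peaks beyond +235 kb (blue), at -0.19 to 0.50, all lie below that fold.

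To see whether the difference covered the whole gene, the 5 peaks inside the gene body that the table assigned to the downstream microRNA gene Mir122 were tested, since the rule had not chosen them. They lay from +257 to +329 kb, in introns 6 and 8 and in the 3' UTR. None (0 of 5) was called by DESeq2 or edgeR, 0 had an unadjusted p under 0.05, and the lowest adjusted p was 0.83. The strongest, at +257 kb (chr18:65145023-65145293), held more tags than any member, with 433, 420 and 451 tags after oil and 476, 463 and 453 after tamoxifen. Although the 3 tamoxifen values lay above the oil values, the log2 change was 0.09 (SE 0.10, adjusted p = 0.911). The peak with the largest change, at +269.8 kb in intron 8 (chr18:65157340-65157838), was weak and had 14.9, 21 and 22.8 tags after oil and 28, 32.9 and 23.7 after tamoxifen. Its groups did not overlap either, and the log2 change was 0.50 (SE 0.39, adjusted p = 0.83). Thus 2 of 5 had all tamoxifen values above the oil values, beside 11.9% of all peaks. The other 2 intron 6 peaks had log2 changes of -0.19 and 0.12. The 3' UTR peak had 134, 140 and 109 tags after oil and 131, 126 and 110 after tamoxifen, with a log2 change of -0.06 (SE 0.18, adjusted p = 0.987). The difference between these 5 peaks and the members was not tested, because the members were chosen on it.

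The peaks of the 14 other genes with a peak centered within 1000000 bp of the upstream start site were compared next. Of these 124 peaks 1 was called (0.654% of all peaks were called), and their median log2 change was 0.02. It lay in intron 1 of Alpk2, an alpha-kinase gene downstream of Nedd4l (chr18:65381842-65382100), with 104, 95.1 and 125 tags after oil and 214, 311 and 157 after tamoxifen. Its log2 change was 1.07 (SE 0.31, adjusted p = 0.0475, DESeq2), a call that edgeR did not make (adjusted p = 0.0754). It was also lost without oil replicate 1 (adjusted p = 0.422), oil replicate 2 (0.407) or tamoxifen replicate 1 (0.276), and without tamoxifen replicate 3 its fold fell under 2 (log2 change 0.77). The count of 1 became 2 without oil replicate 4 and 5 without tamoxifen replicate 4. edgeR called 2 other neighboring peaks, 1 assigned to Nars but inside intron 2 of Atp8b1, and 1 assigned to Zfp532.

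At any fold, 3 neighboring peaks had an adjusted p under 0.05 (DESeq2), beside 1.39% of all peaks. A second Alpk2 peak next to the first (chr18:65381554-65381811) had 75.6, 57.0 and 91.4 tags after oil and 131, 176 and 106 after tamoxifen (log2 change 0.88, SE 0.22, adjusted p = 0.011). The third was in intron 2 of Atp8b1, a phospholipid flippase gene (chr18:64599739-64599989). It had 173, 138 and 155 tags after oil and 245, 278 and 197 after tamoxifen (log2 change 0.63, SE 0.16, adjusted p = 0.00998). At all 3 peaks tamoxifen replicate 4 was the lowest of the tamoxifen libraries. Fech, the last enzyme of heme synthesis and the gene of 12 neighboring peaks, had a median log2 change of -0.04, with 0 peaks called by DESeq2 or edgeR and 0 at an unadjusted p under 0.05. Malt1, a paracaspase gene with 16 peaks, had a median of -0.09, with 0 called by either tool and 2 at an unadjusted p under 0.05. Atp8b1, with the nearest upstream peaks, had a median of 0.48. Of the 8 peaks assigned to it 7 were above 0 and 3 had an unadjusted p under 0.05. Further peaks inside the Atp8b1 transcript were assigned to Nars. Their log2 changes ran from -0.50 (chr18:64558165-64558370) to 1.01 (chr18:64584931-64585221). Of all 21 Nars peaks 14 were below 0, so the Atp8b1 median does not describe the whole gene. The sums over the 8 assigned peaks were 425, 394 and 407 tags after oil and 558, 646 and 490 after tamoxifen, without overlap. Farther upstream, St8sia3 (0.54) and Onecut2 (0.45) had medians above 0, and Nars (-0.07) and Wdr7 (-0.05) below 0.

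**Figure D5:**
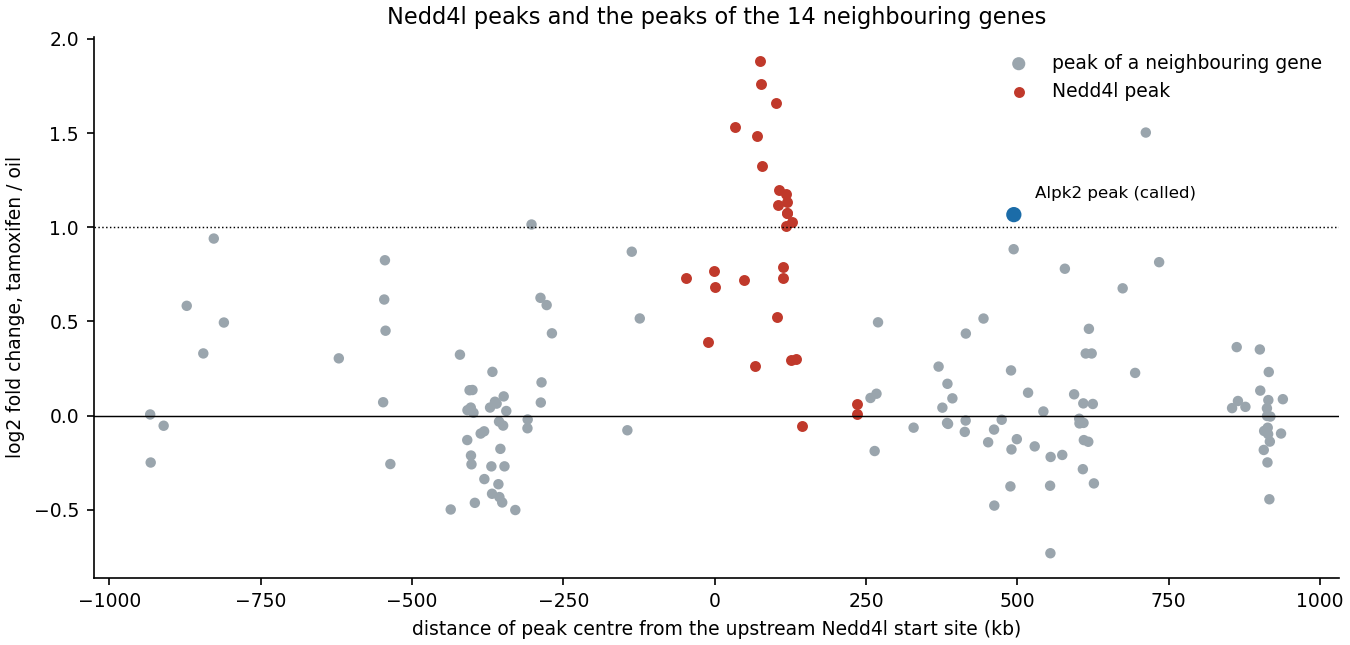
Log2 fold change of tamoxifen over oil against distance from the upstream Nedd4l start site in kb, for the 28 Nedd4l peaks (red) and the 124 peaks of the 14 neighboring genes (gray, the called Alpk2 peak in blue). The dotted line marks a fold of 2. The median over all neighboring peaks is 0.02, that of the 8 peaks assigned to Atp8b1 is 0.48, and the called Alpk2 peak lies at 1.07.

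Genes that work with NEDD4L were examined in the same fit, as 42 genes in 5 groups with 758 peaks within 200000 bp of their TSS. Of these, 3 peaks of 2 genes were called, all higher (0.588% of all peaks were called higher), and the median log2 change was -0.0073. With edgeR the count was 7 (1.03% of all peaks), of which 6 were higher and 1, assigned to Slc12a3, was lower (log2 change -1.41). Without tamoxifen replicate 4 it was 9 (1.54% of all peaks), of which 8 were higher and 1, assigned to Ywhaz, was lower (log2 change -1.19). It was 1 when oil replicate 2, oil replicate 4 or tamoxifen replicate 1 was left out, and 0 when tamoxifen replicate 3 was, with 369 peaks called in all. Disregarding the fold limit, 12 peaks of 6 genes passed the adjusted p (1.58%, beside 1.39% of all peaks), all 12 of them higher.

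Among the NEDD4 family ligases 1 of 77 peaks was called, beside 0.654% of all peaks, and 6 passed the adjusted p at any fold (7.79%, beside 1.39% of all peaks). An unadjusted p under 0.05 was found for 21 (27.3%, beside 9.02% of all peaks), 20 of them higher. Of the 21, 10 were among the 12 peaks of Hecw1 and 7 among the 10 peaks of Smurf1. All 12 and all 10 had log2 changes above 0, with medians of 0.67 and 0.56. The 3 tamoxifen values lay above the oil values at 10 Hecw1 and 8 Smurf1 peaks, beside 11.9% of all peaks. The called one was in intron 1 of Hecw1, a ligase best known from neurons (chr13:14492477-14492743), with 22.1, 21.9 and 25.1 tags after oil and 55.6, 95.8 and 54.0 after tamoxifen. The groups did not overlap (log2 change 1.57, SE 0.32, adjusted p = 3.35e-04, DESeq2), and the call was lost without tamoxifen replicate 3 (adjusted p = 0.104). The start-site peak of Wwp1, a relative that also ubiquitylates SMAD pathway proteins, rose by less than 2 times, from 247, 243 and 269 tags to 393, 367 and 353 (log2 change 0.55, SE 0.12, adjusted p = 6.59e-04). Smurf1, which targets SMADs and the TGF-beta receptor, had 2 such peaks around its TSS. The stronger, at 556 bp downstream, rose from 456, 465 and 434 to 668, 709 and 629 tags (log2 change 0.57, SE 0.09, adjusted p = 1.14e-06). DESeq2 called 0 Smurf1 peaks, with log2 changes of up to 2.09. edgeR called 2 other Smurf1 peaks (log2 changes 1.27 and 2.05), beside 1.03% of all peaks.

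At Nedd4 itself the start-site peak had a log2 change of -0.07 (SE 0.11, adjusted p = 0.959), and of its 29 peaks 0 were called by DESeq2 or edgeR, while 2 had an unadjusted p under 0.05. A single one passed the adjusted p at any fold, -2000 bp from the TSS (chr9:72660164-72660499), with 157, 170 and 135 tags after oil and 250, 282 and 178 after tamoxifen (log2 change 0.62, SE 0.17, adjusted p = 0.0265). The median log2 change over the Nedd4 peaks was -0.07. Itch, Smurf2 and Wwp2 had start-site log2 changes of -0.05, 0.01 and 0.05, with adjusted p of 0.978, 0.996 and 0.979.

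Of 322 peaks of the SGK kinases, Pdpk1, Wnk1 and the 14-3-3 genes 0 were called by DESeq2 or edgeR, 19 had an unadjusted p under 0.05 (5.90%, beside 9.02% of all peaks), and the median log2 change was -0.03. Without tamoxifen replicate 4, 2 of them were called, 1 of Sgk1 higher (log2 change 1.13, adjusted p = 0.0119) and 1 of Ywhaz, a 14-3-3 gene, lower (-1.19, adjusted p = 0.0137). With all libraries Sgk1 had 25 peaks with 0 called and 3 at an unadjusted p under 0.05. Summed, they held 3749 to 3780 tags after oil and 4393, 4765 and 3071 after tamoxifen, so that replicate 4 lay below the oil libraries and replicates 1 and 3 above. Sgk3 differed in direction, as 43 of its 50 peaks were below 0, with a median log2 change of -0.19 and 0 called. Its sums were 4442, 4352 and 4558 tags after oil and 3585, 3555 and 4473 after tamoxifen, so that replicate 4 lay within the oil range and replicates 1 and 3 below. The adaptors (NDFIP and arrestin-domain proteins, which recruit the ligases) had 0 of 99 peaks called by either tool and 2 at an unadjusted p under 0.05. For the deubiquitylases Usp2 and Usp10 the counts were 0 of 56 and 4, with a median log2 change of -0.12.

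The substrates had 2 of 204 peaks called (0.980%, beside 0.654% of all peaks). An unadjusted p under 0.05 was found for 21 (10.3%, beside 9.02% of all peaks). At any fold 6 passed the adjusted p (2.94%, beside 1.39% of all peaks), of which 5 were among the 28 peaks of Tgfbr1. The called ones were both assigned to Tgfbr1, the type I TGF-beta receptor. In intron 3 (chr4:47402227-47402539) tags were 28.7, 14.1 and 20.6 after oil and 57.5, 83.6 and 31.2 after tamoxifen (log2 change 1.46, SE 0.38, adjusted p = 0.013). edgeR did not call it (adjusted p = 0.0622). A peak -49713 bp from the TSS, inside an intron of the adjacent gene (chr4:47303395-47303624), had 14.3, 18.5 and 20.6 tags after oil and 34.8, 70.2 and 31.2 after tamoxifen (log2 change 1.34, SE 0.39, adjusted p = 0.0455). Both calls were lost when oil replicate 2, oil replicate 4, tamoxifen replicate 1 or tamoxifen replicate 3 was left out, and the second also without oil replicate 1. Without tamoxifen replicate 3 the second peak had no adjusted p, and its log2 change was 0.89. One intergenic peak assigned to Smad3 (chr9:63862447-63862767) rose by 0.84 on the log2 scale (SE 0.17, adjusted p = 4.38e-04), from 102, 113 and 93.2 to 192, 208 and 155 tags. The epithelial sodium channel genes Scnn1a, Scnn1b and Scnn1g had 11 peaks in all, of which 0 were called by DESeq2, 1 by edgeR (Scnn1b), and 2 had an unadjusted p under 0.05.

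Sequence words of transcription factors were counted in the 25 distal members and, for comparison, in the 102059 distal peaks of the same width range (203 to 360 bp), on both strands of the mm10 sequence. The RUNX word TGTGGT, bound by the RUNX1 part that AML1-ETO retains, was in 10 of 25 members (40%) and 24.8% of the comparison peaks. The AP-1 word TGANTCA, for FOS and JUN proteins, was in 5 members (20%) and 8.98%. The GATA word AGATAA was in 6 members (24%) and 20.8%, and the ETS word GAGGAAG, bound by PU.1, in 3 (12%) and 14.2%. With so few members, 1 peak more or less moves a share by 4 percentage points, and no difference was tested.

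For interferon signaling, which Usp18 restrains, the ISRE word TTTCNNTTT was in 2 members (8%) and 9.72% of the comparison peaks, and the STAT word TTCNNNGAA in 3 (12%) and 6.68%. The heat shock word GAANNTTC was in 2 members (8%, 5.39% of the comparison peaks). The nuclear receptor word AGGTCA was in 6 (24%, 14.8%) and the glucocorticoid receptor word AGAACA in 5 (20%, 20.1%). The E-box word CAGCTG was in 6 (24%, 16.2%), the CTCF word AGGGGGC in 1 (4%, 7.47%) and the C/EBP word TTGNNCAA in 0 (4.55%). Of the 9 called members, 4 held the RUNX word, 4 the nuclear receptor word, 4 the E-box word and 3 the GATA word. The AP-1, ETS, STAT, heat shock and glucocorticoid receptor words were in 2 each. The CTCF word was in 1, and the ISRE and C/EBP words in 0. The called members were set by the contrast that chose the locus, and these counts were not tested. The STAT and heat shock words share letters, so 1 stretch can match both, but among the members their matches lay in different peaks. Median GC content was 46.5% in the distal members, 43.9% in the called ones and 49.0% in the comparison peaks. A match gives the letters only and no match says nothing of the factor.

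The genes with the most similar profile over the 6 libraries were found from the root mean square (RMS) difference between log2 sums of normalized tags, each centered on its own mean. The 15096 genes compared had at least 3 peaks within 200000 bp and a mean sum of at least 100 normalized tags. Among them the smallest differences were those of Gfral (0.046), Sdr42e1 (0.052), Ahr (0.054), Mir6925 (0.061) and Cass4 (0.068), where the median gene had 0.435. Ahr, the aryl hydrocarbon receptor, summed over 8 peaks to 345, 302 and 370 tags after oil and 673, 686 and 556 after tamoxifen. The genes were picked for this likeness, so it is no finding. The number of called members was also met elsewhere: 6 genes, Nedd4l included, had 9 or more peaks called higher, of 727 genes with any.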

How the data were processed

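ATAC-seq was analyzed in 6 libraries, grouped by sample title (3 oil, 3 tamoxifen). The members, gene lists and marker lists were chosen with earlier results of these data known. The authors mapped reads to mm10 with Bowtie2 and used HOMER to call peaks in each group, merge them and count tags (versions are not given in the sources used here). The deposited values are estimated counts in steps of 0.5 tags, raw per peak, with at most 3 tags per position, which caps strong peaks. A peak open in neither group is not in the table. The 6 tag columns were the only per-sample values, and 0 others were left out.

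Here tags were rounded and fitted over all 175929 peaks with DESeq2 1.42.0 (R 4.3.3; Wald test, Benjamini-Hochberg adjustment), without covariates, and called at a fold over 2 and an adjusted p under 0.05. Log2 changes are unshrunken. The alternative fit used edgeR 4.0.16 (robust quasi-likelihood). Both fits and the ranking of similar genes were tested on simulated data. Normalized tags are tags divided by DESeq2 size factors. Distances are the file's. Transcripts are from GENCODE vM21 and sequence from the GRCm38 reference, the same assembly as mm10. No sequence of the locus is printed.

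Members were named by rule: the peak nearest each start site, the called members, the most open in oil, the 3 largest rises and falls at a mean of at least 20 tags (1 member fell), and the farthest. The other members with values were added after their values were seen. Outside the locus, called peaks of neighboring and pathway genes and the Usp18 TSS peak were named, with 6 of the 11 that passed the adjusted p below a fold of 2, chosen after their values were seen. The erythroid list is given without 1 gene, which is not reported here.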

Additional observations from a re-analysis of the deposited data

How the results depend on the processing

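Scaling by total mapped tags, by tags in peaks or by TMM, a filter of 10 tags in 3 libraries, edgeR, distal peaks alone, an adjusted p under 0.1, no fold limit and a distance limit of 100000 bp gave 8 to 12 called members in place of 9, all higher. A level-dependent normalization, added after the data were seen, gave 11. Leaving out 1 library gave 4 to 13 called members, 0 to 5 neighboring peaks in place of 1 and 0 to 9 pathway peaks in place of 3 (4 without tamoxifen replicate 1, and 13, 5 and 9 without tamoxifen replicate 4). Except without tamoxifen replicate 4, these fits left 5 to 9 members, 18 to 38 neighboring and 83 to 203 pathway peaks without an adjusted p. Such peaks could not be called. The replicate block on numbers 1 and 4 (4 libraries) gave 0 called members (9 had no adjusted p), 0 neighboring peaks and 0 pathway peaks, with 52 called of all peaks. Deviations of same-numbered libraries correlated at -0.0443 and 0.0506. With 2 such pairs and counting error in every peak, this cannot show whether the numbers pair the samples. Neighboring peaks were 2 with edgeR and 3 without a fold limit. Pathway peaks were 7 with edgeR, 5 with level-dependent normalization, 6 at an adjusted p under 0.1 and 12 without a fold limit. The log2 ratio of summed tags was 0.83 to 0.90 under the scalings, the filter and distal peaks alone, 0.79 to 0.95 leaving out 1 library, 0.72 in the replicate block pairing and 0.54 without the 9 called peaks. The cause of these differences was not tested, except that fewer libraries enter the block and the left-out fits. The Usp18 TSS peak, near 0, turned to -0.036 in the replicate block and ran from -0.0028 (without oil replicate 2) to 0.068 leaving out 1 library. The median member held 38 tags in a library.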
